A study of Homo sapiens with 6 samples.

Results

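The miR-183 cluster consists of 3 microRNA hairpins, MIR183, MIR96 and MIR182, that lie close together on the long arm of chromosome 7. Its members were taken by name from a table of mature miRNA counts as both arms of each hairpin: hsa-miR-183-5p, hsa-miR-183-3p, hsa-miR-96-5p, hsa-miR-96-3p, hsa-miR-182-5p and hsa-miR-182-3p, written below without the species prefix. All 6 were found among the 2656 rows of the table, and all 6 passed the filter on low counts, as did 768 miRNAs in all. The libraries come from K562, an established human leukaemia line of erythroid and myeloid character that carries the BCR-ABL1 fusion. Small RNA was sequenced from 3 libraries of azacitidine-sensitive K562 cells and from 3 libraries of K562 cells selected for resistance by months of growth in rising azacitidine concentrations, with the same culture medium listed for both. Azacitidine is a cytidine analogue that traps DNA methyltransferases and lowers DNA methylation. The series addresses which small RNAs differ between the sensitive and the resistant form. The labels call the libraries biological replicates, do not say how many separate selections they represent or whether drug was present at harvest, and leave the letters NT in the library names unexplained.

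A hairpin in a primary transcript is cut out by Drosha and trimmed by Dicer to a duplex of a 5p and a 3p strand. An Argonaute protein keeps mostly one of them, the guide, and the guide pairs with messenger RNAs through its seed, bases 2 to 8. The miR-183 cluster is best known from sensory organs. Its hairpins are made there from a common transcript in photoreceptors, hair cells and sensory neurons, and mutations in the seed of miR-96 cause inherited hearing loss. In several carcinomas the cluster is abundant, and its guides have been reported to repress the transcription factor FOXO1.

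The mature sequences are shown because the guides of the 3 hairpins have nearly the same seed and each 3p arm has a seed of its own (RefSeq, GRCh38.p14, capitals mark bases 2 to 8, 5′ to 3′).
hsa-miR-183-5p: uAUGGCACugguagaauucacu
hsa-miR-96-5p: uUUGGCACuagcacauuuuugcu
hsa-miR-182-5p: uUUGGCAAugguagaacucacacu
hsa-miR-183-3p: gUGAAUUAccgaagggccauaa
hsa-miR-96-3p: aAUCAUGUgcagugccaauaug
hsa-miR-182-3p: uGGUUCUAgacuugccaacua
All 3 guides begin with U. Within bases 2 to 8, with positions counted from 1 at the 5′ end, miR-183-5p and miR-96-5p differ by A2U, miR-96-5p and miR-182-5p by C8A, and miR-183-5p and miR-182-5p by both A2U and C8A. Over their whole shared length, miR-183-5p and miR-182-5p are identical at 18 of 22 bases, while miR-96-5p matches miR-183-5p at 13 of 22 and miR-182-5p at 12 of 23. Reads of 1 guide therefore differ from those of another at several bases, although the counting program, and how it treated mismatches, is not given in the sources used here.

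The arms sit in the hairpins as follows, in the 2 hairpins that the sequence table holds, with the mature arms in capitals (chr7:129774692-129774769 for MIR96 and chr7:129770383-129770492 for MIR182, minus strand).
MIR96: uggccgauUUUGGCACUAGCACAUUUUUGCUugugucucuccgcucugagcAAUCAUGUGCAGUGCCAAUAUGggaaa
MIR182: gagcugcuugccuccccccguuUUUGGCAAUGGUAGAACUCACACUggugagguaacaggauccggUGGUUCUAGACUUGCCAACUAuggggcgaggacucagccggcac
In each of these hairpins 20 bases separate the 5p from the 3p arm. MIR183 occupies chr7:129774905-129775014 on the same strand, 135 bases from MIR96, and MIR182 follows 4199 bases beyond MIR96. The whole cluster spans 4.63 kb and lies between NRF1, whose annotated end is 13.3 kb away, and UBE2H, 55.7 kb away. None of the 3 hairpins overlaps a GENCODE 29 gene other than miRNA genes. The bases between the hairpins were not checked for overlap.

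Library totals ran from 3291500 to 12563945 counts, with the lowest in resistant replicate 3. Resistant replicate 3 stood apart from its group. CPM here are counts scaled to 1000000 per library after TMM factors. Across tested miRNAs, Pearson's r of its log2 CPM was 0.875 with resistant replicate 1 and 0.864 with resistant replicate 2, against 0.995 between these and 0.978 to 0.992 among sensitive libraries. In it miR-92a-3p took 58.6% of the counts, and miRNA names that match pieces of other RNAs, a sign of RNA quality (15 of the 20 listed are in the table), took 4.88% against 0.980% to 1.65% in the other 5 libraries. Of the 63120 CPM of these names in resistant replicate 3, miR-1260a and miR-1260b held 28660 and 30360 CPM. miR-1291, miR-1248 and miR-7704 were also highest there, at far lower levels. miR-1246 (3787 CPM) lay within the sensitive range, and miR-4454 was close to the other resistant libraries. Erythroid miRNAs (miR-451a, both arms of miR-144 and miR-486-5p) and myeloid miRNAs (miR-223-3p and both arms of miR-142) were present in each library. Their summed levels were 5206 to 7105 and 11650 to 13050 CPM in sensitive libraries and 10390 to 63500 and 1350 to 10460 CPM in resistant libraries. The sums of 63500 and 1350 CPM were those of resistant replicate 3. Of the 4 erythroid miRNAs, 1 had a positive log2 fold change, miR-486-5p (means of 5677 CPM in sensitive and 28670 CPM in resistant libraries). It was at 13140, 9579 and 63290 CPM in resistant replicates 1 to 3, with a mean of 11360 CPM in replicates 1 and 2. miR-451a, miR-144-3p and miR-144-5p had edgeR log2 fold changes of -0.94, -0.41 and -0.002. Of 12 markers of other cell types, miR-133a-3p, miR-206, miR-124-3p, miR-205-5p, miR-150-5p and miR-211-5p stayed under 1 CPM in each library, and none was at 0 in all of them. The summed level of the 12 was 145 to 219 CPM in sensitive and 360 to 538 CPM in resistant libraries. miR-200c-3p, an epithelial miRNA, reached 437.5 CPM and miR-375-3p, an endocrine one, 101.7 CPM. The mean of miR-200c-3p was 91.5 CPM in sensitive and 350.8 CPM in resistant libraries (edgeR adjusted p = 0.0355), and that of miR-375-3p 83.3 and 70.3 CPM. Of the 6 markers tested, 2 had a positive edgeR log2 fold change, miR-200c-3p (1.94) and miR-141-3p (0.63). The part of cell type, RNA quality or resistant replicate 3 in the results on the cluster was not tested beyond the values given with and without that library.

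Among the guides, miR-183-5p was higher in each resistant library than in any sensitive one, and miR-96-5p was not. miR-183-5p was at 1796, 1890 and 938 CPM in sensitive replicates 1 to 3 and at 3614, 2983 and 2626 CPM in resistant replicates 1 to 3, so the groups did not overlap. miR-182-5p, the most abundant member over all libraries, was at 2415, 2769 and 1006 CPM in sensitive and at 4780, 3557 and 1142 CPM in resistant libraries. Resistant replicates 1 and 2 lay above all sensitive libraries for miR-182-5p, and resistant replicate 3 lay among them. miR-96-5p, whose seed carries the deafness mutations, was at 1269, 1555 and 816.5 CPM in sensitive and at 1546, 1790 and 234 CPM in resistant libraries. Here the groups overlapped and resistant replicate 3 was the lowest of the 6 libraries.

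The 3p arms were far less abundant, and for all 3 of them the groups did not overlap. miR-182-3p was at 23.2, 17.9 and 23.9 CPM in sensitive and at 50.8, 54.2 and 56.2 CPM in resistant libraries. Resistant replicate 3 was close to the other resistant libraries for this arm, unlike for the 5p arm of the same hairpin. miR-183-3p was at 11.9, 11.1 and 4.63 CPM in sensitive and at 19.3, 22.1 and 38.9 CPM in resistant libraries, with resistant replicate 3 the highest. miR-96-3p, the rarest member, was at 1.33, 1.02 and 1.30 CPM in sensitive and at 3.15, 3.62 and 1.57 CPM in resistant libraries. Its values rest on 16, 10 and 7 counts in sensitive and 31, 48 and 4 counts in resistant libraries, and the exact 95% Poisson interval of resistant replicate 3, 0.428 to 4.02 CPM, holds all 3 sensitive values. In all, 4 of the 6 members were higher in the resistant group with no overlap, against 18.9% of the 768 tested miRNAs that were higher without overlap.

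**Figure D1:**
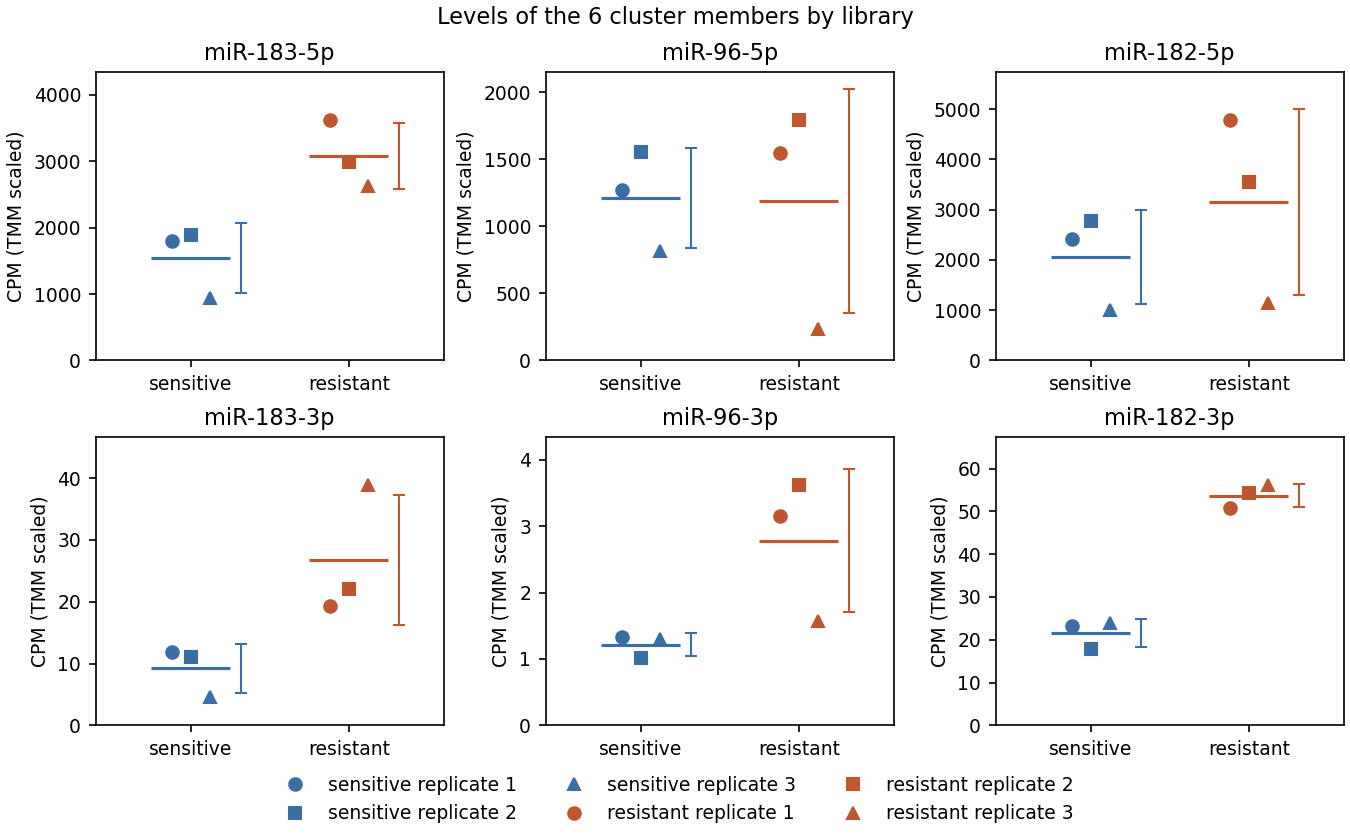
CPM of each member (y axis, from 0, TMM scaled) in the sensitive and resistant libraries, with the replicate number as the marker shape, the group mean as a line and the SD as the bar beside it (n = 3). miR-182-3p separates the groups with the least spread, and the triangle of resistant replicate 3 is the lowest resistant point in all 3 panels of the 5p arms.

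With all 6 libraries, 0 of the 6 members passed an adjusted p of 0.05 in edgeR's quasi-likelihood test, where 32 of 768 miRNAs (4.17%) passed in either direction. Before adjustment, 4 of the 6 members and 26.7% of all tested miRNAs had a p under 0.05. DESeq2 called 2 members higher, miR-182-3p and miR-183-3p. It called 19.4% of all tested miRNAs in either direction and 98 of 768 as higher. limma-voom called 0 members, and limma-voom with library quality weights called 5 members higher. With these weights 42.1% of all tested miRNAs were called in either direction and 148 of 768 as higher. The log2 fold changes, resistant over sensitive, were positive for 5 members and for 46.2% of all tested miRNAs. Their median was 1.12 over the 6 members and -0.11 over all tested. miR-182-3p came closest to the threshold, at 21.7 ± 3.29 and 53.7 ± 2.73 CPM (mean ± SD, n = 3 each; log2 fold change 1.31 ± 0.37 SE in edgeR, adjusted p = 0.0981). miR-183-5p was at 1541 ± 524.5 and 3074 ± 500.4 CPM (log2 fold change 1.00 ± 0.41 SE in edgeR, adjusted p = 0.174). miR-183-3p had the largest log2 fold change of the 6 in this fit, 1.52 (± 0.52 SE, edgeR adjusted p = 0.134), at 9.22 ± 3.997 and 26.8 ± 10.6 CPM. miR-96-3p had a log2 fold change of 1.25 (± 0.48 SE, edgeR adjusted p = 0.163). For miR-182-5p the log2 fold change of 0.61 was as large as its SE of 0.61 (edgeR adjusted p = 0.540). For miR-96-5p it was -0.03 (± 0.69 SE, edgeR adjusted p = 0.984). This sign turned with RLE factors and with library totals and stayed with limma-voom (-0.38). Scaling by library totals in place of TMM factors moved the median of all tested miRNAs from -0.11 to 0.09, and the median of the members from 1.12 to 1.32.

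Without resistant replicate 3, 5 of the 6 members rose, and miR-96-5p was the member that did not pass. In that fit 231 of 822 tested miRNAs (28.1%) passed in either direction and 13.7% passed as higher. miR-182-3p rose 2.52-fold (log2 fold change 1.33 ± 0.25 SE in edgeR, adjusted p = 0.00221) and miR-96-3p 2.90-fold (log2 fold change 1.53 ± 0.38 SE in edgeR, adjusted p = 0.0102). miR-183-5p and miR-183-3p, the arms of the first hairpin of the transcript, rose 2.22-fold and 2.29-fold (edgeR adjusted p = 0.00756 and 0.0225). miR-182-5p rose 2.10-fold (log2 fold change 1.07 ± 0.33 SE in edgeR, adjusted p = 0.0310). miR-96-5p had a log2 fold change of 0.52 (± 0.25 SE, edgeR adjusted p = 0.158). The mean of resistant replicates 1 and 2 was 4169 CPM for miR-182-5p and 1668 CPM for miR-96-5p, against 2064 and 1213 CPM in sensitive libraries. The median log2 fold change was 1.17 over the 6 members and 0.04 over all tested miRNAs. In the same 5 libraries, scaling by library totals (29.7% of miRNAs called) and a correction for GC content (27.0% called) each called 6 of 6 members higher, miR-96-5p included. These percentages are for either direction, and 179 and 103 of 822 miRNAs were called as higher. These 2 settings were chosen after seeing the data, and library totals moved the median of all tested miRNAs there to 0.33.

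**Figure D2:**
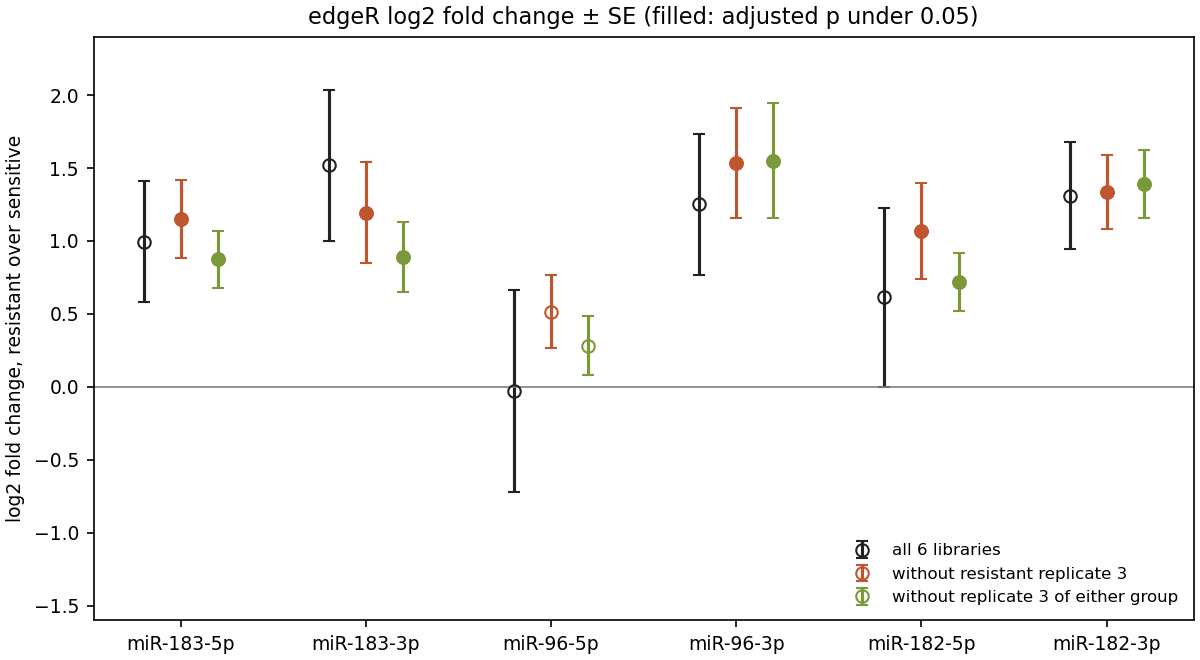
log2 fold change of each member, resistant over sensitive, with its SE as the bar (edgeR), for all 6 libraries, without resistant replicate 3 and without replicate 3 of either group. Filled points passed an adjusted p of 0.05. No point is filled with all 6 libraries and 5 of 6 are filled in each of the other fits, where the miR-96-5p point is unfilled.

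The libraries with the number 3 departed from the rest of their groups at some members and not at others. In sensitive replicate 3 miR-182-5p, miR-183-3p, miR-183-5p and miR-96-5p were below the mean of sensitive replicates 1 and 2, by log2 values of -1.37, -1.32, -0.97 and -0.79. miR-182-3p (0.22) and miR-96-3p (0.14) were not. The median over 756 miRNAs with counts in all 3 sensitive libraries was 0.01 and the 5th percentile was -1.23. In resistant replicate 3 the guides miR-96-5p and miR-182-5p were below the mean of resistant replicates 1 and 2 by log2 values of -2.83 and -1.87. The 3p arm miR-96-3p was below it too (-1.11, from 4 counts). miR-183-5p (-0.33) and miR-182-3p (0.10) were close to it, and miR-183-3p (0.91) was above it. Over 728 miRNAs with counts in all 3 resistant libraries the median was -0.24, the 5th percentile was -3.18 and the 95th was 2.89, and 7.83% had a value below that of miR-96-5p. In this library 33.1% of miRNAs were within 1 log2 unit of the other resistant libraries, against 85.3% in sensitive replicate 3. With replicate 3 of both groups left out, a setting chosen after seeing the data, 5 of 6 members rose. There 39.7% of 821 miRNAs were called in either direction and 174 as higher. The median of the members was then 0.88, with miR-182-3p at 1.39 (edgeR adjusted p = 2.56e-05), miR-183-5p at 0.87 (edgeR adjusted p = 0.000733), miR-182-5p at 0.72 (edgeR adjusted p = 0.00481) and miR-96-5p at 0.28 (edgeR adjusted p = 0.279). The mature sequences of the members have a GC content of 39.1% to 45.5%, below the median of 47.8% over tested miRNAs. With a GC correction and all 6 libraries, miR-183-5p (log2 fold change 1.81), miR-182-3p (2.02) and miR-96-3p (1.77) passed (edgeR adjusted p = 0.0415, 0.0326 and 0.0326). In that fit 8.85% of all tested miRNAs passed in either direction and 37 of 768 as higher.

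As a share of all miRNA counts, the 6 members together made up 0.528%, 0.5996% and 0.267% of sensitive replicates 1 to 3 and 1.18%, 1.05% and 0.317% of resistant replicates 1 to 3. Such a share is scaled by library totals alone. Exact 95% binomial intervals, which cover counting error only, were 0.262% to 0.271% in sensitive replicate 3 and 0.311% to 0.323% in resistant replicate 3. Resistant replicates 1 and 2 were above all sensitive libraries, and resistant replicate 3 was above sensitive replicate 3 alone. In CPM, after TMM factors, the sums were 5517, 6244 and 2790 in sensitive and 10010, 8410 and 4100 in resistant libraries, and the groups overlapped too. With miR-92a-3p taken out of the totals, the shares were 0.611%, 0.670% and 0.311% in sensitive and 1.48%, 1.27% and 0.767% in resistant libraries. The groups then no longer overlapped, and this step raised the share of resistant replicate 3 most. miR-92a-3p was the most abundant miRNA of each resistant library but not of the sensitive ones. There it was miR-21-5p, at 17.3%, 19.1% and 16.0% of counts in sensitive replicates 1 to 3. miR-21-5p stayed in the totals, and shares without it were not tested.

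The 3 hairpins, which a common transcript can supply, were not present in fixed proportions. MIR96 products made up 23.0%, 24.9% and 29.3% of the cluster's counts in sensitive and 15.5%, 21.3% and 5.76% in resistant libraries, lower in each resistant library. MIR183 products made up 32.8%, 30.4% and 33.8% in sensitive and 36.3%, 35.7% and 65.0% in resistant libraries, higher in each resistant library. MIR182 products made up 44.2%, 44.6% and 36.9% in sensitive and 48.2%, 42.9% and 29.2% in resistant libraries, and the groups overlapped. The mean share of MIR96 was 25.7 ± 3.22% in the sensitive group against 14.2 ± 7.86% in the resistant group (SD, n = 3 each; exact permutation test, two-sided p = 0.1, 0.15 adjusted over the 3 hairpins). For MIR183 the means were 32.3 ± 1.71% and 45.7 ± 16.7% (SD, n = 3 each; exact permutation test, two-sided p = 0.1, 0.15 adjusted), and for MIR182 the exact permutation p was 0.8. A two-sided p of 0.1 is the smallest that 3 against 3 libraries can give. Without resistant replicate 3 the resistant means were 36.0% for MIR183, 18.4% for MIR96 and 45.6% for MIR182. The difference for MIR183 then dropped from 13.3 to 3.68 percentage points, and that for MIR182 turned from -1.78 to 3.68 percentage points.

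**Figure D3:**
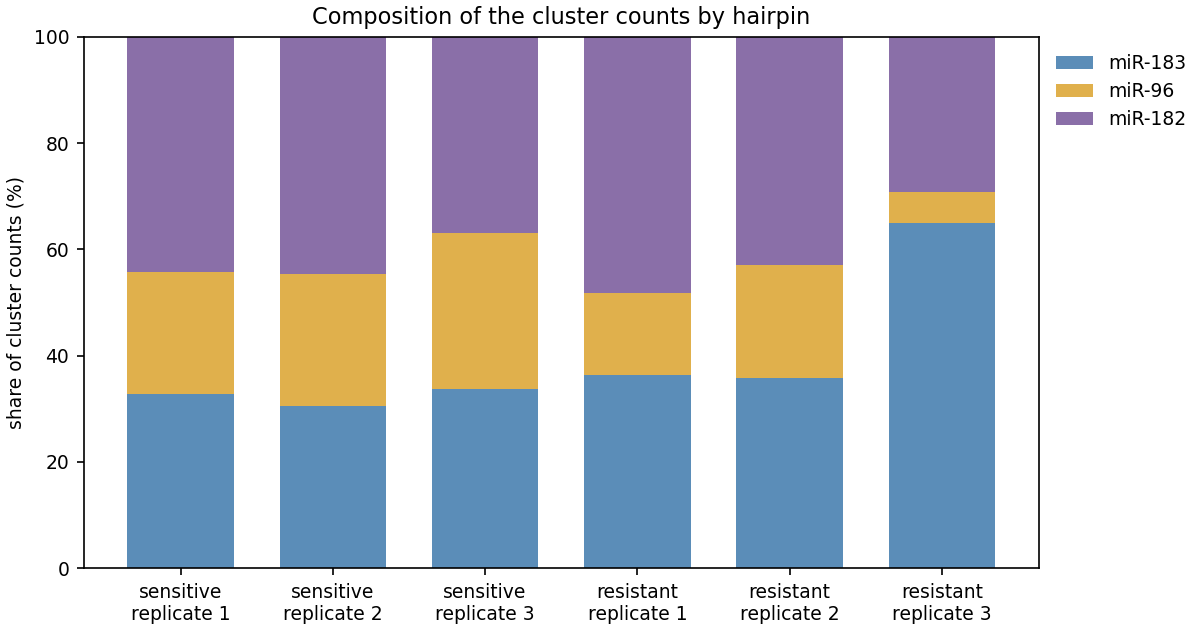
Share of the cluster's counts (y axis, percent) from each hairpin, both arms summed, in each of the 6 libraries (x axis). The MIR96 segment is smaller in each resistant library than in any sensitive one and is 5.76% in resistant replicate 3, where MIR183 products reach 65.0%.

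Ratios of guides within a library gave the order of their levels. miR-182-5p had more counts than miR-183-5p in 5 of the 6 libraries, with ratios of 1.34, 1.47 and 1.07 in sensitive and 1.32 and 1.19 in resistant replicates 1 and 2, and a ratio of 0.435 in resistant replicate 3. These neighbours in the order differed by less than their spread between libraries. miR-183-5p exceeded miR-96-5p 1.42-, 1.22- and 1.15-fold in sensitive and 2.34-, 1.67- and 11.2-fold in resistant libraries. miR-182-5p exceeded miR-96-5p 1.90-, 1.78- and 1.23-fold in sensitive and 3.09-, 1.99- and 4.87-fold in resistant libraries. In the sensitive group the means of miR-183-5p and miR-96-5p, 1541 ± 524.5 and 1213 ± 372 CPM (SD), also differed by less than their spread. Both ratios to miR-96-5p were higher in each resistant library than in any sensitive one. Below the guides came miR-182-3p, miR-183-3p and miR-96-3p, in this order in each of the 6 libraries and with no overlap between them within either group. Adapter ligation favours some miRNA ends over others, so ratios between different miRNAs compare libraries rather than molecules per cell.

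The 5p arm held nearly all counts of each hairpin. The 3p share was 0.672% for miR-183, 0.156% for miR-96 and 1.21% for miR-182 over all libraries, where the rarer arm had a median share of 10.3% over 205 hairpins with both arms tested. Of these 205, the rarer arm had a smaller share than in miR-96 in 4, and the 5p arm was the more abundant in 101. For miR-182 the 3p share was 0.952%, 0.641% and 2.32% in sensitive and 1.05%, 1.502% and 4.69% in resistant libraries, highest in the third replicate of each group. For miR-183 it was 0.658%, 0.586% and 0.491% in sensitive and 0.532%, 0.736% and 1.46% in resistant libraries, and only resistant replicate 3 had an exact 95% interval (1.19% to 1.77%) clear of all other libraries. For miR-96 it was 0.105%, 0.0656% and 0.158% in sensitive and 0.204%, 0.202% and 0.666% in resistant libraries. These values did not overlap between the groups, but they rest on few 3p counts. The exact 95% interval of sensitive replicate 3, 0.0637% to 0.326% from 7 counts, held the values of resistant replicates 1 and 2. How many of the 205 hairpins separated the groups in this way was not counted. The interval for miR-96 in resistant replicate 3, from 4 counts, reached from 0.182% to 1.70%.

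The change in the ratio of 3p to 5p was tested with limma on log2 ratios over the 205 hairpins, of which 3 (1.46%) passed an adjusted p of 0.05 and 18 (8.78%) had an unadjusted p under 0.05. None of the 3 cluster hairpins passed. The log2 change of the ratio, resistant over sensitive, was 1.55 for miR-96 (SE 0.66, unadjusted p = 0.0479, limma adjusted p = 0.397), 0.81 for miR-182 (SE 0.71, limma adjusted p = 0.511) and 0.53 for miR-183 (SE 0.47, limma adjusted p = 0.514), beside a median of -0.16 over all 205. Without resistant replicate 3 these were 0.93, 0.16 and 0.11 (limma adjusted p = 0.451, 0.892 and 0.866), where 1.83% of 219 hairpins passed. edgeR's test of differential arm use also called 3 of the 205 hairpins and none of the cluster (adjusted p = 0.287 for miR-96).

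**Figure D4:**
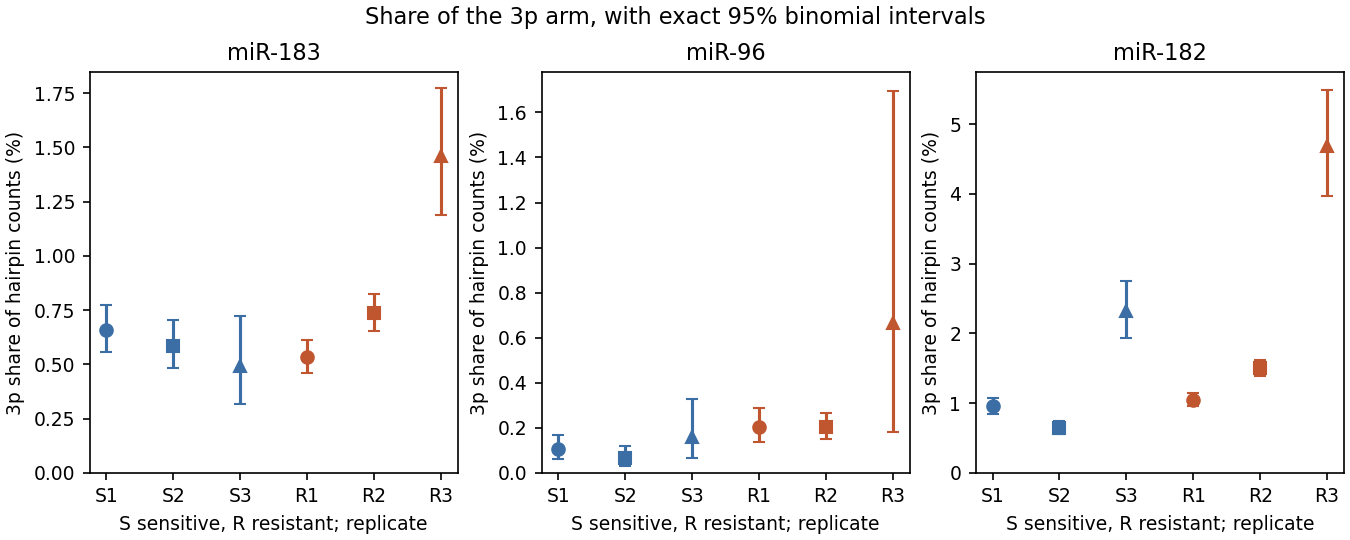
Share of the 3p arm among the counts of each hairpin (y axis, percent, from 0) in sensitive (S) and resistant (R) replicates 1 to 3 (x axis), with exact 95% binomial intervals as bars. Resistant replicate 3 is the highest point for each hairpin, at 1.46%, 0.666% and 4.69%, and its interval for miR-96 rests on 4 counts.

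Other miRNAs of the band 7q32 give the local chromosomal setting. Of 10 listed arms from MIR593, MIR129-1, MIR335, MIR29A and MIR29B1, 5 had enough counts to be tested, 0 passed and 0 had a positive log2 fold change (median -0.41). An edgeR unadjusted p under 0.05 was found for 1 of them, miR-29a-3p, and DESeq2 called 0. This miRNA, which represses collagen and DNA methyltransferase transcripts and lies 1101.7 kb from the cluster, was at 504.5, 606 and 662 CPM in sensitive and 253, 318 and 74.2 CPM in resistant libraries, with no overlap (edgeR log2 fold change -1.46, adjusted p = 0.159). miR-335-3p and miR-335-5p, from an intron of the imprinted gene MEST 721.1 kb away, had log2 fold changes of -0.41 and -0.01. miR-29b-3p had -0.43 and miR-129-5p -0.19, and each of these miRNAs is also made from a hairpin on another chromosome. Without resistant replicate 3, 0 of the 6 then tested rose and 2 fell, where 14.4% of all tested miRNAs fell: miR-29a-3p (edgeR log2 fold change -0.99, adjusted p = 0.00728) and miR-129-5p (-1.59, edgeR adjusted p = 0.0244). In that fit miR-335-5p was at 0.50 (edgeR adjusted p = 0.198), miR-335-3p at 0.14 (edgeR adjusted p = 0.728) and miR-29b-3p at 0.09 (edgeR adjusted p = 0.860). The median of the 6 was 0.12. miR-129-5p was highest of all libraries in resistant replicate 3, the one left out, at 72.65 CPM.

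A single miRNA outside the cluster, miR-1271-5p, has the seed of a member in the sequence table. Its sequence, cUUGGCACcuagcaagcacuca (RefSeq, GRCh38.p14, bases 2 to 8 in capitals), has bases 2 to 8 equal to those of miR-96-5p and comes from a hairpin on chromosome 5. It had 10, 10 and 3 counts in sensitive and 17, 25 and 5 counts in resistant libraries. Its CPM of 0.832, 1.02 and 0.555 against 1.73, 1.89 and 1.96 did not overlap (log2 fold change 1.15 ± 0.47 SE in edgeR, adjusted p = 0.168). Of all 768 tested miRNAs, 18.9% were higher without overlap. miR-1271-5p passed the filter on low counts only through the resistant libraries, so the filter itself favoured this separation. Its level was far below that of miR-96-5p in each library.

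A list of 13 miRNAs reported to repress FOXO1 or FOXO3, transcription factors that restrain the cell cycle and that the guides of the cluster also target, was read beside the cluster. Of 11 tested, 0 passed in edgeR with all libraries, 4 had an unadjusted p under 0.05 (26.7% of all tested miRNAs did), and DESeq2 called 3 lower, where it called 6.64% of all lower, and 0 higher. The log2 fold change was negative for all 11 (median -0.96), while 46.2% of all tested miRNAs had a positive one. The 4 most abundant had log2 fold changes of -0.96 (miR-27b-3p), -0.15 (miR-370-3p), -0.60 (miR-27a-3p) and -2.66 (miR-9-5p, edgeR adjusted p = 0.0727). Without resistant replicate 3, 6 of the 11 fell and 0 rose, where 14.4% of all tested miRNAs fell. miR-9-5p, a neural miRNA that is also abundant in some leukaemias, fell most (edgeR log2 fold change -2.17, adjusted p = 0.000726), followed by miR-139-5p (-1.85, edgeR adjusted p = 0.00308), miR-222-3p (-1.80, edgeR adjusted p = 0.00657) and miR-221-3p (-1.74, edgeR adjusted p = 0.00206). miR-223-3p, the granulocyte miRNA, had -0.99 and miR-27b-3p -0.57 (edgeR adjusted p = 0.00733 and 0.0369).

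The members followed each other over the 6 libraries to differing degrees. Pearson's r of log2 CPM was positive for 13 of the 15 pairs of members, with a median of 0.605. It was 0.86 between miR-183-5p and miR-183-3p, 0.81 between miR-96-3p and miR-182-3p, and 0.78 both between miR-183-3p and miR-182-3p and between miR-96-5p and miR-182-5p. It was 0.11 between miR-183-5p and miR-96-5p, 0.19 between the arms of miR-182, -0.30 between miR-96-5p and miR-182-3p and -0.36 between miR-183-3p and miR-96-5p. These values describe 6 libraries of 2 groups, share the same library scaling and rest in part on resistant replicate 3. The 5 other miRNAs of at least 10 CPM whose log2 CPM was most like the mean of the members were miR-3065-5p (r = 0.987 over the 6 libraries), miR-202-5p (0.95), miR-148a-5p (0.948), miR-93-5p (0.901) and miR-135a-5p (0.890), chosen among 464 miRNAs. miR-3065-5p, the most alike, was at 7.57, 10.2 and 3.70 CPM in sensitive and 31.7, 31.4 and 8.25 CPM in resistant libraries. Like the sum of the cluster, it was lowest in the third replicate of each group.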

How the data were processed

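The authors deposited 1 table of read counts per mature miRNA, whole numbers with 1 column per library and no normalization, and these counts were used as deposited. The submitters' processing notes name the build GRCh38. Which aligner and counting program were used is not given in the sources used here. A NEBNext small RNA kit was used for the libraries, per the labels' protocols. Counts carry no molecular identifiers, and the labels name no batch.

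filterByExpr (minimum count 10, minimum total 15) decided which miRNAs were tested. Resistant and sensitive libraries were compared over all tested miRNAs with edgeR 4.0.16 in R 4.3.3 (TMM factors, quasi-likelihood F test, no covariates, Benjamini-Hochberg adjustment, threshold 0.05). SE is the absolute log2 fold change over the square root of F. CPM are counts scaled to 1000000 per library after TMM factors. Arm ratios, log2 of 3p over 5p with 0.5 added to each, were tested with limma 3.58.1 over all hairpins with both arms tested. Hairpin shares were compared with exact permutation tests (scipy 1.17.1). The scripts were tested on simulated data. The p-values cover the spread between these libraries.

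Named were the members, tested miRNAs of the 7q32 list, miRNAs with a member's seed, the 4 most abundant and any called miRNAs of the FOXO list, and the 5 most alike in profile. The members, lists and tests were chosen with earlier results of these data known. Alternatives were DESeq2 1.42.0, limma-voom with and without quality weights, other scalings and filters, a GC correction by loess (sequences for 677 of 768 tested miRNAs, 88.2%), the replicate number as a block, and leaving out each library.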

Additional observations from a re-analysis of the deposited data

How the results depend on the processing

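Of all tested miRNAs, 32 were called with all libraries, 21 with RLE factors, 162 without a filter, 13 with a minimum mean of 10 CPM, 149 with DESeq2, 323 with quality weights, 68 with GC correction and 4 to 231 when each library was left out in turn. Without sensitive replicates 1, 2 or 3 the counts were 5, 4 and 5, and without resistant replicates 1, 2 or 3 they were 7, 26 and 231. Members called were 2 with DESeq2, 5 with quality weights, 3 with GC correction and 0 to 5 when each library was left out, with 5 only without resistant replicate 3. Of the 7q32 neighbours, 2 were called with quality weights and 0 to 2 when each library was left out.

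Members that passed did so at log2 fold changes of 1.69 (miR-183-3p) and 1.44 (miR-182-3p) with DESeq2. With quality weights they were 0.99 (miR-183-5p), 0.99 (miR-183-3p), 1.39 (miR-96-3p), 0.90 (miR-182-5p) and 1.26 (miR-182-3p), and with GC correction 1.81 (miR-183-5p), 1.77 (miR-96-3p) and 2.02 (miR-182-3p). The log2 fold change of miR-96-5p, -0.03 with all libraries, was 0.005 with RLE factors and with DESeq2, 0.28 with library totals, 0.085 with the minimum mean, 0.36 with quality weights and 0.44 with GC correction. It was -0.03 without a filter, -0.38 with limma-voom and -0.41 with the replicate block. When each library was left out, log2 fold changes ran from 0.80 to 1.30 (miR-183-5p), 1.19 to 1.93 (miR-183-3p), -0.35 to 0.52 (miR-96-5p), 1.17 to 1.53 (miR-96-3p), 0.28 to 1.07 (miR-182-5p) and 1.33 to 1.52 (miR-182-3p). For miR-96-5p they were 0.09, 0.27 and 0.52 without sensitive replicates 1 and 2 and resistant replicate 3. They were -0.21, -0.18 and -0.35 without sensitive replicate 3 and resistant replicates 1 and 2. At a mean of 10 CPM miR-96-3p was not tested.

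Settings chosen after seeing the data called 244 miRNAs, 6 members and 2 neighbours (library totals, resistant replicate 3 left out), 222, 6 and 3 (GC correction, same library left out) and 326, 5 and 2 (replicate 3 of both groups left out). In this order, log2 fold changes were 1.44, 1.37 and 0.87 for miR-183-5p, 1.48, 1.26 and 0.89 for miR-183-3p, 0.80, 0.76 and 0.28 for miR-96-5p, 1.82, 1.73 and 1.55 for miR-96-3p, 1.35, 1.27 and 0.72 for miR-182-5p, and 1.62, 1.49 and 1.39 for miR-182-3p. The cause of these shifts was not tested.

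Hairpins with a changed arm ratio numbered 3, 1 with a pseudocount of 5, and 1 to 4 when each library was left out (1 without any one sensitive replicate). No cluster hairpin passed in any of these. The difference in the share of MIR182 within the cluster, -1.78 percentage points with all libraries, ran from -5.83 to 3.68 when each library was left out, with 3.68 without resistant replicate 3, and the 5p arms alone gave the directions found with both arms.

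Same-numbered libraries did not deviate together throughout (r = -0.06, 0.26 and 0.13 across miRNAs), and for differently numbered ones r ran from -0.24 to 0.20. Libraries numbered 2 and those numbered 3 were each most alike with their own number, so whether the numbers mark pairs was not settled. In the main fit they were not taken as pairs. A replicate block gave 23 calls and 0 members, with miR-182-3p at a log2 fold change of 1.32 (edgeR adjusted p = 0.164). Counts of 4 to 48 per library limit miR-96-3p.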
